A study of Danio rerio with 3 samples.

Results

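The genes described here are 10 genes of the hypoxia response of the zebrafish: p4ha1b, ero1a, slc2a3a, vegfaa, bnip3lb, adma, egln3, hif1ab, hif1al and epas1b. They were picked by gene symbol from 14462 genes with a probe on the array, with the ratios of these same samples known. Their ratios are therefore a description, with no test. The data are 3 two-channel array samples of whole embryos, each labelled a biological replicate. In each sample, embryos exposed to 71.9 mg/L Aroclor 1254, a commercial mixture of polychlorinated biphenyls, for 24 h from 24 hpf (hours post fertilization) were set against embryos kept in fish medium at 28.5 °C, both at 48 hpf. The labels give no strain, clutch or pool size, so p-values measure only the spread between these 3 samples, which may be technical.

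Cells sense oxygen through prolyl hydroxylases of the Egln family, which mark the alpha subunits of hypoxia-inducible factor (HIF) for destruction by the von Hippel-Lindau protein Vhl. When oxygen is short, HIF alpha is spared, pairs with Arnt and switches on genes for glucose uptake, glycolysis, collagen modification and vessel growth. Arnt is also the partner of the aryl hydrocarbon receptor (AhR), the receptor for dioxin-like biphenyls, so the HIF and AhR pathways share a subunit. HIF alpha is controlled mainly through protein stability, which an RNA array does not measure.

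Values are log2 ratios with the sign as deposited, because the sources used here do not say which condition is the numerator. A value of 1 is a 2-fold difference. The marker of AhR activation, cyp1a, was positive at 7.07, 8.61 and 8.02 in replicates 1, 2 and 3. Gene names rest on matching probes to rows by grid position, a numbering inferred from these values. For the 8597 pairs of probes that target the same gene, presence of a value correlated at 0.388 with that numbering and at -0.00348 with the row numbers as given. For pairs measured in all samples, the Pearson correlation of the mean ratios was 0.76 over 2169 pairs against 0.0255 over 440. These are correlations across probe pairs, which are not independent replicates. Since the numbering was inferred from the same values, they are no independent check of it. The replicates differed in width: over 10200 common rows the SD of the ratios was 0.82, 0.97 and 0.62 in replicates 1, 2 and 3. Over those rows replicate 2 correlated at 0.30 with replicate 1 and 0.33 with replicate 3 (Pearson), beside 0.49 between replicates 1 and 3. Replicate 2 also had the fewest rows with a value, 10487 beside 12735 in replicate 1 and 12062 in replicate 3. As a check of the label whole embryos, markers of skeletal muscle (3 of 3), neurons (elavl3, the 1 on the array), red blood cells (3 of 4), lens (cryaa) and hatching gland (he1.1) had values in all samples. Of 4 endothelial markers 2 were on the array, of which cdh5 had values in replicates 1 and 3 and kdrl had none. Fewer cells of a type and less RNA per cell cannot be told apart in whole embryos.

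The 10 genes had 15 probes, of which 10 had a value in all 3 samples and 1 in 2 samples. That is 66.7%, against 36.2% of all 21060 probes with a gene. The single probes of egln3 and adma had no value in any sample. The gene egln3 encodes an oxygen-sensing prolyl hydroxylase that is itself a HIF target, and adma encodes adrenomedullin, a peptide that acts on vessels. No ratio can be given for either. The genes p4ha1b, ero1a, slc2a3a, vegfaa and epas1b each rest on 1 probe, so no second probe stands beside their ratios. Of the 2 probes each of bnip3lb and hif1ab, 1 had values. For hif1al 3 of 4 probes had values in all samples, and the second in the order of the array missed replicate 2.

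Of the 8 measured genes, the 5 HIF targets had positive means and the 3 HIF alpha genes had negative means. Over all measured genes 2769 means were positive and 3128 negative. The targets p4ha1b, ero1a and slc2a3a, were at least 2-fold positive in every replicate, while vegfaa and bnip3lb were far from 0 in replicate 2 alone. Across all 5897 measured genes 0.763% were at least 2-fold positive in all samples. A single sign in all 3 samples was seen for 5 of the 8 genes, 4 positive and 1 negative. Over the whole array the share was 43%, made up of 19.6% positive and 23.5% negative. Nothing is read from these shares, since the members were chosen with the ratios known.

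**Figure D1:**
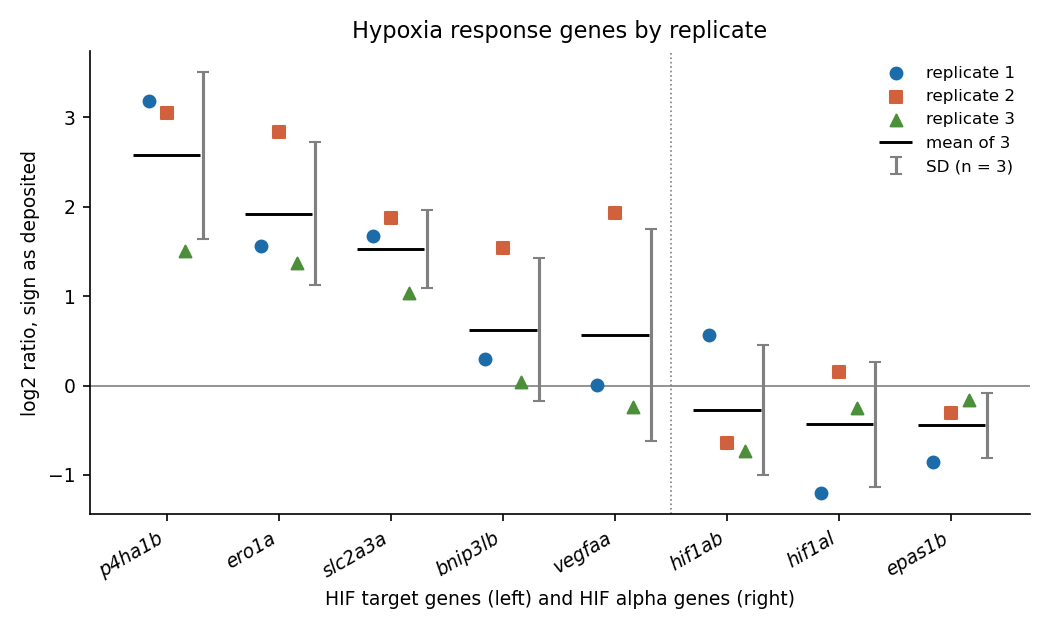
Log2 ratio (y axis, sign as deposited) of the 8 measured hypoxia response genes, HIF targets left of the dotted line and HIF alpha genes right of it. Points are replicates, black bars the mean of 3 and grey bars the SD; p4ha1b, ero1a and slc2a3a lie above 1 in all replicates, and vegfaa and bnip3lb do so in replicate 2 only.

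The largest ratio was that of p4ha1b, which encodes a catalytic alpha subunit of collagen prolyl 4-hydroxylase, the enzyme that hydroxylates proline in procollagen. Its ratios were 3.18, 3.05 and 1.50 in replicates 1, 2 and 3, with a mean of 2.58 ± 0.93 (SD, n = 3; 5.96-fold). Replicates 1 and 2 lay close together and replicate 3 was lower, and all were positive. Counted from the most positive of the 5897 genes, p4ha1b ranked 9th, 23rd and 35th in the 3 replicates and 8th by its mean. Among the same genes cyp1a ranked 2nd, 1st and 1st. Both the ratio and the rank of p4ha1b were lowest in replicate 3.

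The gene ero1a encodes an oxidase of the endoplasmic reticulum that regenerates protein disulfide isomerase for disulfide bond formation. It stood at 1.56, 2.84 and 1.37, with a mean of 1.92 ± 0.80 (SD, n = 3; 3.80-fold). Replicate 2 was the highest and the other two were close to each other. Its ranks were 118, 30 and 49, and 23 by the mean. The related oxidase gene ero1b, with 1 of 2 probes measured, stood at -0.12, -0.16 and -0.35, below ero1a in every replicate.

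The glucose transporter gene slc2a3a had ratios of 1.67, 1.87 and 1.04, with a mean of 1.53 ± 0.44 (SD, n = 3; 2.88-fold). Its spread between replicates was the smallest of the 5 targets, and its ranks were 98, 157 and 114. The other glucose transporter of the HIF response on the array, slc2a1a, had no value.

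The remaining targets depended on replicate 2. The gene vegfaa encodes vascular endothelial growth factor A, the main inducer of embryonic vessel growth. Its ratios were 0.01, 1.93 and -0.24, with a mean of 0.56 ± 1.19 (SD, n = 3). The mean without replicate 2 was -0.12, so its sign turned. Its paralog vegfab had values in replicates 1 and 3 only, at 0.72 and 0.46. The mitophagy receptor gene bnip3lb stood at 0.30, 1.54 and 0.04, with a mean of 0.63 ± 0.80 (SD, n = 3), and at 0.17 without replicate 2. Its paralog bnip3la, also on the array, had no value. For vegfaa and bnip3lb the SD exceeded the mean.

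**Figure D2:**
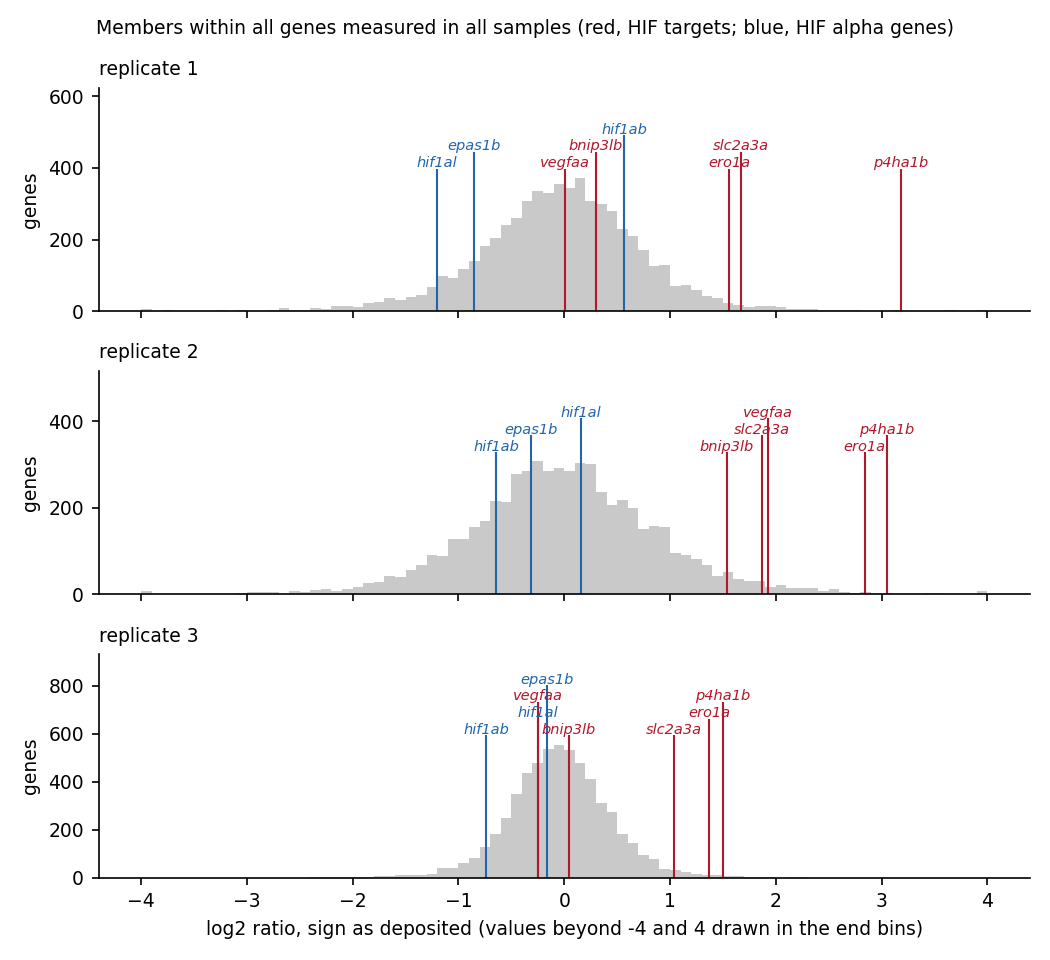
Number of genes (y axis) by log2 ratio (x axis, sign as deposited) in each replicate for the 5897 genes measured in all samples, with HIF targets in red and HIF alpha genes in blue. p4ha1b, ero1a and slc2a3a lie in the right tail of each panel, while vegfaa and bnip3lb leave the middle only in replicate 2.

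The 3 HIF alpha genes had negative means, with replicates of both signs for hif1ab and hif1al. The gene hif1ab encodes a zebrafish HIF-1 alpha. Its measured probe read 0.56, -0.64 and -0.74, with a mean of -0.27 ± 0.73 (SD, n = 3). Replicate 1 was positive and the other replicates negative, and the mean without replicate 1 was -0.69. The gene epas1b, which encodes a HIF-2 alpha, was the one member that was negative in all replicates, at -0.85, -0.31 and -0.16 (mean -0.44 ± 0.36; SD, n = 3). Without replicate 1 its mean was -0.24.

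The gene hif1al is listed by RefSeq with the synonym Hif-3alpha. Over the 3 probes with values in all samples it averaged -1.21, 0.16 and -0.25, with a mean of -0.43 ± 0.70 (SD, n = 3). Its 4 probes share 1 accession and are not independent. All of them were negative in replicate 1, between -1.87 and -0.71. In replicates 2 and 3 they lay on both sides of 0: the first read 0.59 and -0.39, the third -0.02 and 0.05, and the fourth -0.10 and -0.42, and the second read 0.16 in replicate 3. The mean of hif1al was -0.05 without replicate 1 and -0.73 without replicate 2. Of the other HIF alpha genes on the array, hif1aa had no value and hif1al2 had one in replicate 2 alone, at 1.94 from 1 of 2 probes. In each replicate the highest HIF alpha gene lay below the highest target. In replicates 1 and 3 the 2 roles overlapped, while in replicate 2 the lowest target, bnip3lb at 1.54, was above the highest HIF alpha gene at 0.16. The members were chosen with these ratios known, so nothing is read from this order.

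**Figure D3:**
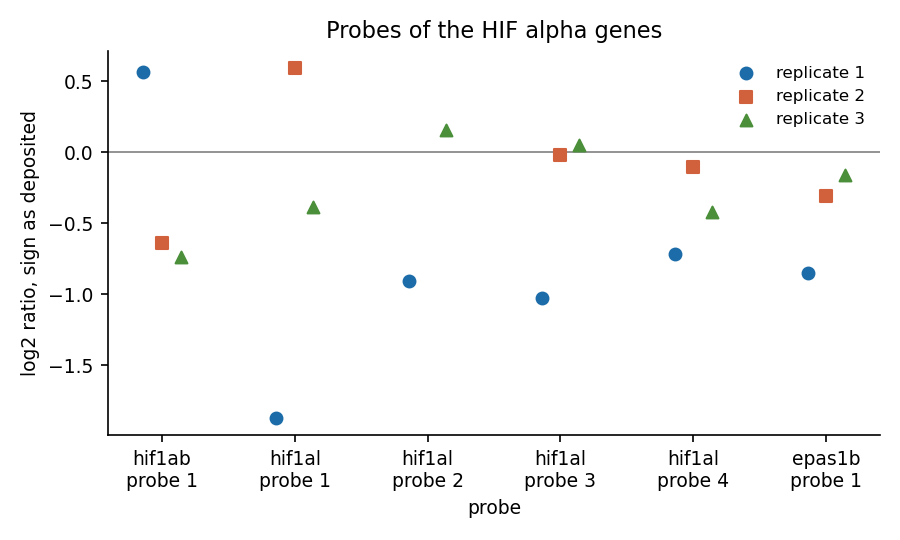
Log2 ratio (y axis, sign as deposited) of each HIF alpha probe with a value (x axis), with 1 point per replicate. All hif1al probes are negative in replicate 1, between -1.87 and -0.71, and scatter around 0 in the other replicates.

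Genes of the same pathway outside the 10 were taken from 4 lists of textbook genes: oxygen sensing, other HIF targets, glycolysis, and receptors and ligands of the vascular growth factor and adrenomedullin families. These lists, like the members, were chosen with earlier results of these data known. Their shares and medians, here and below, are therefore a description and no independent support. Of their 137 genes, 104 were on the array and 58 had values in all samples. None of the 58 passed an adjusted p of 0.05 in limma fitted over all 5897 genes, where 0.017% passed (1 gene, cyp1a). At an unadjusted limma p under 0.05 there were 15 positive and 1 negative of the 58, where 7.51% of all genes were positive and 8.67% negative at that p. By the ordinary statistic, without moderation, 3 of the 58 had an unadjusted p under 0.05. That is a smaller share than the 600 of all 5897 genes. All replicates were positive for 23 of the 58 (39.7%) and negative for 5 (8.62%), beside 19.6% and 23.5% of all genes. The median ratio of the 58 was 0.22, beside -0.04 over all genes. With 1 replicate left out the median of the 58 was 0.43, 0.15 and 0.28 without replicates 1, 2 and 3.

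Among oxygen-sensing genes, 8 had values in all samples, 5 of them positive and 1 negative throughout, beside 19.6% and 23.5% of all genes. Their median was 0.53, and 0.33 without replicate 2. The asparagine hydroxylase gene hif1an, whose product blocks the transactivation domain of HIF alpha, had the smallest p. It read 2.43, 1.26 and 1.17 (mean 1.62 ± 0.70; SD, n = 3; adjusted p = 0.157, limma). All of its replicates were more than 2-fold positive, though the gene did not pass. The gene vhl, which encodes the HIF-binding part of the ubiquitin ligase, was singled out after its values were seen. Its 1 probe read 2.13 and 3.06 in replicates 1 and 3 and had no value in replicate 2. In the fit of genes with at least 2 values its adjusted p was 0.104 in limma. The prolyl hydroxylase gene egln1b, the other member of that family on the array, stood at 0.02, 0.79 and 0.48 (mean 0.43 ± 0.39; SD, n = 3; adjusted p = 0.437, limma).

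The next genes of this list were the chaperone hsp90ab1, which holds HIF alpha in a stable form (0.88 ± 0.26), and cited2, which competes with HIF alpha for its coactivators (0.99 ± 0.85). The elongin C gene eloca, a partner of Vhl, stood at 0.62 ± 0.39 (SD, n = 3 each). Their adjusted p in limma lay between 0.2003 and 0.311. The paralog elocb had the opposite sign, at -0.32, -0.75 and -0.30. No value was present for arnt or arnt2, the HIF beta subunits.

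Of other HIF targets, 19 genes had values in all samples. All replicates were positive for 9 of them (47.4%) and negative for 2 (10.5%), beside 19.6% and 23.5% of all genes. The median of the 19 was 0.31, and 0.49 without replicate 2. Of 3 measured genes for collagen-modifying enzymes, 2 were positive in all replicates. The second prolyl 4-hydroxylase subunit gene, p4ha2, read 1.59, 2.15 and 0.80 over 2 probes (mean 1.51 ± 0.68; SD, n = 3; adjusted p = 0.16, limma), and the probe that missed replicate 2 read 1.41 and 1.29. The lysyl hydroxylase gene plod1a stood at 1.15, 1.58 and 0.44 (mean 1.06 ± 0.58; SD, n = 3; adjusted p = 0.199, limma). The lysyl oxidase-like gene loxl2b, whose product cross-links collagen, differed between replicates, at -0.32, 0.94 and -0.05 (mean 0.19 ± 0.66; SD, n = 3). For p4ha1a, p4ha3, plod2, loxa and p4hb no probe had a value.

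The insulin-like growth factor binding protein gene igfbp1a, which slows growth in hypoxic zebrafish embryos, read 1.14, 2.82 and 1.38 (mean 1.78 ± 0.91; SD, n = 3; adjusted p = 0.16, limma). Its 3 probes were all positive in all replicates. For the chemokine receptor gene cxcr4a the mean was 1.04 ± 0.66 (SD, n = 3), with an adjusted limma p of 0.214. After quantile normalization igfbp1a and p4ha2 passed, among 61 of all 5897 genes. After equal scaling igfbp1a did, among 47 genes, where 1 gene passed in the main fit. Not every target was positive: higd1a, which encodes a small mitochondrial protein, stood at -2.69, -0.54 and 0.18, and mif, which encodes a cytokine, was negative in all replicates (-0.47 ± 0.36; SD, n = 3).

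**Figure D4:**
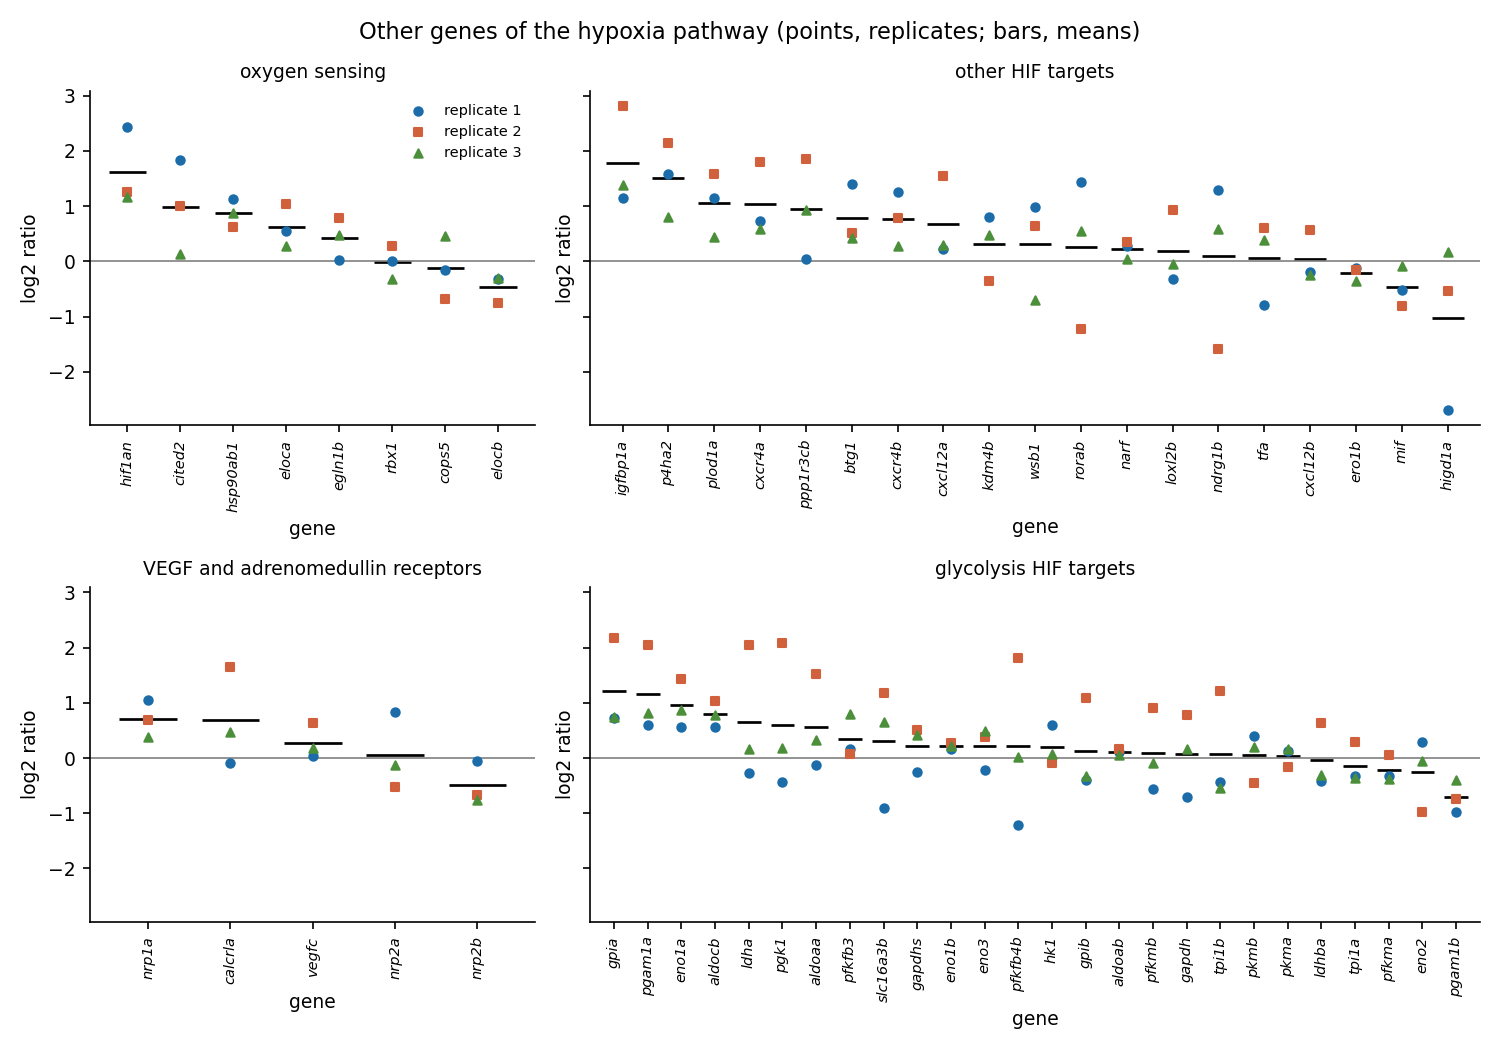
Log2 ratio (y axis) of the other hypoxia pathway genes with values in all samples (x axis), by list, with points for replicates and bars for means. hif1an has the highest mean among the oxygen-sensing genes, and igfbp1a, followed by p4ha2, among other HIF targets. In the glycolysis list replicate 2 is the highest point for 19 of 26 genes.

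Most glycolysis genes were highest in replicate 2, the sample that correlated least with the others. All 3 replicates were positive for 7 of 26 genes (26.9%) and negative for 1 (3.85%), beside 19.6% and 23.5% of all genes. The median of the 26 was 0.20, but the medians were -0.23, 0.71 and 0.16 in replicates 1, 2 and 3. The median of their means was 0.42 without replicate 1 and 0.08 without replicate 2. Replicate 2 held the highest value for 19 of the 26 genes, or 73.1%, where it did for 39.4% of all genes. It also did for 4 of the 5 measured member targets. These shares have an unlike base, since 21 of the 26 glycolysis means were positive, beside 2769 of all 5897. All 5 target means were positive too, and replicate 2 had the widest ratios (SD 0.97). The lactate dehydrogenase gene ldha read -0.28, 2.05 and 0.17, and the phosphoglycerate kinase gene pgk1 read -0.44, 2.08 and 0.18. Like vegfaa and bnip3lb, both were above 1 in replicate 2 alone. The genes with the smallest p were eno1a (0.95 ± 0.44), gpia (1.21 ± 0.83), pgam1a (1.15 ± 0.78) and aldocb (0.79 ± 0.24; SD, n = 3 each). Their adjusted p in limma lay between 0.202 and 0.215. The paralog pgam1b was negative in all replicates, at -0.98, -0.75 and -0.40.

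Markers of red blood cells and of the hatching gland were also highest in replicate 2. The embryonic globin genes hbbe3 and hbae3 and the heme synthesis gene alas2 each had their highest value there, at 2.45, 0.96 and 1.71. The marker medians were 0.58, 1.71 and -0.42 in replicates 1, 2 and 3, and gata1a had no value. The hatching gland enzyme gene he1.1 read 2.73, 4.05 and -0.15. The neural marker elavl3 was highest in replicate 2 too, at -0.03, 0.11 and -0.34. So was the median of the 3 skeletal muscle markers, at -0.12, 0.30 and 0.18, though only 1 of them had its own highest value there. The lens crystallin gene cryaa differed between replicates in another way, at 2.11, -0.63 and -1.20. The part of these tissues in the ratios of the hypoxia response genes and the glycolysis genes was not tested.

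**Figure D5:**
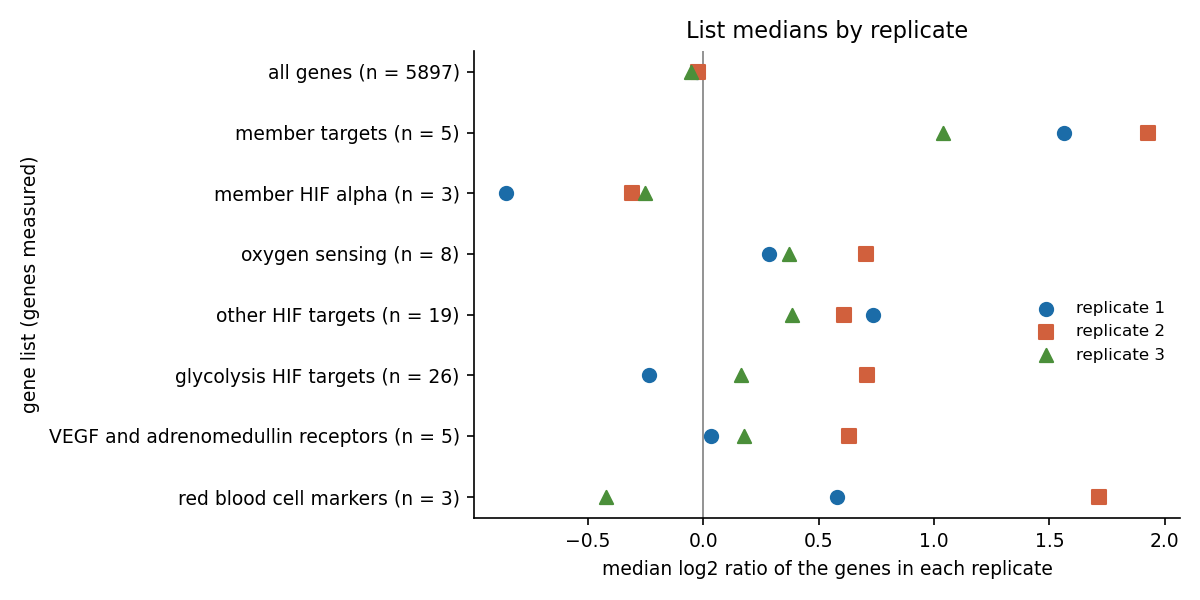
Median log2 ratio in each replicate (x axis) for all genes, the measured members by role, the other pathway lists and the red blood cell markers (y axis, with the number of genes). Medians of the member targets, glycolysis genes and red blood cell markers are highest in replicate 2, at 1.93, 0.71 and 1.71. So are those of the oxygen-sensing genes (0.70) and of the vascular and adrenomedullin family (0.63). The median of other HIF targets is highest in replicate 1 and that of HIF alpha genes in replicate 3. The member target median is above 1 in all replicates, though vegfaa and bnip3lb are not.

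Receptors and ligands of the vascular growth factor and adrenomedullin families were sparsely measured, with 5 of 13 genes on the array having values in all samples. The neuropilin gene nrp1a, a co-receptor for vascular endothelial growth factor, was positive in all replicates (0.70 ± 0.33; SD, n = 3; adjusted p = 0.257, limma). Another neuropilin gene, nrp2b, was negative in all (-0.50 ± 0.38). The adrenomedullin receptor gene calcrla read -0.09, 1.65 and 0.48, again highest in replicate 2, and the lymphatic growth factor gene vegfc had a mean of 0.28 ± 0.31 (SD, n = 3). The receptor genes kdr and kdrl had no value, and flt1 had values in 2 replicates, at -0.01 and -0.68.

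Of 11 AhR pathway genes on the array 4 had values in all samples. Of these cyp1a passed (adjusted p = 0.000812, limma), with a mean of 7.90 ± 0.78 (SD, n = 3). The quinone reductase gene nqo1 stood at -0.49 ± 0.68, the AhR target tiparp at 0.16 ± 0.35 and the receptor gene ahr2 at -0.06 ± 0.21 (SD, n = 3 each). The AhR target cyp1c1, a cytochrome P450 gene, read 3.20 and 4.45 in replicates 1 and 3 and had no value in replicate 2. Its adjusted p was 0.0817 in limma over genes with at least 2 values. The other genes of this list with values in replicates 1 and 3 only differed in sign between them. They were cyp1b1, at 0.55 and -0.08, and foxq1b, at 1.65 and -0.81.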

How the data were processed

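The authors deposited 1 table of signed log ratios, 45219 rows by 3 samples, used as deposited. The unit of the deposited values was taken as log2, since values reach -12.9; the natural logarithm was not excluded, and folds assume log2. Per the labels, 2 µg of total RNA per sample was amplified and labelled with the dyes Cy3 and Cy5, and the design includes dye swaps. Normalization, scanner, swap handling and the condition in the numerator were not given in the sources used here. The labels list control embryos as channel 1 and exposed as channel 2.

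Probes (21060 with 1 gene, 0 with several; 24159 rows had none) were matched to rows on a grid of 266 by 170 spots, a numbering inferred from these values. Array design names were kept; the IDs of 20132 probes were found in the RefSeq table of GRCz12tu. Rows with values in all 3 samples were averaged per gene (5897 genes) and tested against 0 by an intercept model in limma 3.58.1 (R 4.3.3, moderated by eBayes, 2-sided), with Benjamini-Hochberg adjustment over all genes and a threshold of 0.05. The fit was tested on simulated data. Array signal was not used here, and its effect on the precision is not known. The fit rests on 3 samples.

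Members and gene lists were chosen with earlier results of these data known. Named genes are all members, cyp1a, relatives of members, and in each list the 4 genes with the smallest limma p. Others were named after their values were seen.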

Additional observations from a re-analysis of the deposited data

How the results depend on the processing

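The number of genes passing over the whole array was 1. It was 61 after quantile normalization, 47 after equal scaling, 2 after median centring, 2 with the filter on small ratios, and 0 with the ordinary statistic (600 genes at an unadjusted p under 0.05). Leaving out 1 replicate gave 1 to 22, the 22 without replicate 3. Of the other hypoxia pathway genes 0 passed. It was 2 after quantile normalization (igfbp1a and p4ha2) and 1 after equal scaling (igfbp1a). It was 0 in the other settings. By the ordinary statistic 3 of the 58 had an unadjusted p under 0.05, a smaller share than the 600 of all 5897 genes. The larger share of the 58 at that p in limma was thus not seen with the ordinary statistic. The number of members with 1 sign in all samples was 5, and 5 to 6 in all settings run. Of 240 values for 30 named genes, 235 kept their sign and their side of the threshold or stayed within 1 SD, 3 newly passed and 2 turned sign. Part of the 235 was fixed in advance. Leaving out 1 replicate can turn the sign of a member's mean but cannot move it by 1 SD. For a gene with values from 1 probe, the settings on rows give the main value by construction. The 235 is therefore no measure of robustness. With 1 replicate left out the mean of vegfaa ran from -0.12 to 0.97 and that of ahr2 from -0.17 to 0.031, and both turned without replicate 2. Averaging rows with a value in any sample, chosen after seeing the data, moved hif1al from -0.43 to -0.37. Turning all signs turns every signed value by construction and left the counts as they were. For shifts not set by construction, the cause was not tested. Exposed and control embryos are already compared inside each value, so the test against 0 pairs them by array only. The labels do not say whether the embryos on an array shared a clutch. No further pairing was possible because all samples form 1 group. The signal over background behind each ratio was not known, so a missing value gives no bound.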
